A study of Mus musculus with 6 samples.

Results

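The 9 genes described here, *Mbp*, *Mobp*, *Mog*, *Mag*, *Cnp*, *Ermn*, *Cldn11*, *Mal* and *Ugt8a*, encode myelin components and proteins of the mature oligodendrocyte. They were taken by symbol from the 21667 named genes measured by RNA-Seq in the somatosensory cortex of *Mef2c* conditional knockout (cKO) mice and control littermates, and they were selected on their levels in these same mice, as a class with higher CPM in cKO. The difference between genotypes therefore selected the genes and is given as a description, without a test. All 9 had reads in every mouse and passed the filter on low values.

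The 3 controls were Mef2cfl/fl mice without Cre, and the 3 cKO mice carried the same floxed *Mef2c* together with Emx1-Cre, which is active in most excitatory neurons of the forebrain and in some glia. All were males on a mixed SVeV-129 and C57BL/6J background. Replicate 1 of each genotype was 14 weeks old, and replicates 2 and 3 were 12 weeks old. No source used here describes pooling, and each sample is taken as 1 mouse. In dissected tissue of this kind, more oligodendrocytes and more myelin RNA per oligodendrocyte cannot be told apart.

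Oligodendrocytes wrap axons of the central nervous system in layers of membrane. Most of the layers are fused into compact myelin by basic proteins and proteolipids, while cytoplasm remains at the inner and outer rims and in channels between them. The cells arise from precursors that pass through a premyelinating stage before the myelin genes are switched on together, under the control of transcription factors such as SOX10 and MYRF. In the adult cortex myelin is densest in the deep layers and continues to be added in adulthood.

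Promoter sequences are shown for the 2 genes whose genotypes did not overlap, *Mobp* and *Cldn11*, and for *Cnp* and *Mag*, whose windows held the letters of both SOX and MYRF motifs. The windows are the 250 bases before the RefSeq start in GRCm38.p6, written 5′ to 3′ on the strand of the gene. *Mag* has 3 RefSeq starts, of which the first listed is used. Capitals mark the SOX motif ACAAAG and the MYRF motif CTGGNAC on either strand.
Mobp, plus strand of chr9:120149492-120149741: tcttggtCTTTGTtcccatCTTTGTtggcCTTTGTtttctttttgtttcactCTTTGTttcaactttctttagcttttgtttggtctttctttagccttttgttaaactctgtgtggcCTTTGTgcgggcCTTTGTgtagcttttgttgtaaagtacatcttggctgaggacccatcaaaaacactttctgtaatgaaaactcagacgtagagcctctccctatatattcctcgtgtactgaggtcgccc
Cldn11, plus strand of chr3:31149670-31149919: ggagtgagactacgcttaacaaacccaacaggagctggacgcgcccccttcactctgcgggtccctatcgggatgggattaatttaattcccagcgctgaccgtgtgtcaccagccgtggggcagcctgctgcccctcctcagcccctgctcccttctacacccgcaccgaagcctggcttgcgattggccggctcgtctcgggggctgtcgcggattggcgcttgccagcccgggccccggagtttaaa
Cnp, plus strand of chr11:100574689-100574938: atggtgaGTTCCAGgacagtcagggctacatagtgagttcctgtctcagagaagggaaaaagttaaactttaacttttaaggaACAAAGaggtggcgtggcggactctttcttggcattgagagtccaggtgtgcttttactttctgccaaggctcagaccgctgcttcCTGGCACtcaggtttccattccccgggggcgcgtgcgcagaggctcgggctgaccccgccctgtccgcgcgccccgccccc
Mag, minus strand of chr7:30914864-30915113: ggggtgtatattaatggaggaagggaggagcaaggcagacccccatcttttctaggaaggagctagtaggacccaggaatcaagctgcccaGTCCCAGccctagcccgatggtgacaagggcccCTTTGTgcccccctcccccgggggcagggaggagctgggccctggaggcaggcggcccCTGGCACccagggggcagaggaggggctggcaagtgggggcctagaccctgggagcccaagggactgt

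RefSeq windows were found for 8 of the 9 genes, *Mbp* not being analysed for sequence here. *Mobp* held 6 copies of ACAAAG, all on the opposite strand and between 243 and 120 bases before the start. It was the 1 window with 6 or more copies among the 32851 windows of all genes, of which 16.5% held at least 1. The limit of 6 was taken from *Mobp* itself. *Cnp* and *Mag* held 1 copy each. CTGGNAC was present in *Cnp*, *Mag* and *Mog* and in 16.1% of all windows. The MEF2 motif (CTA and TAG with 4 bases between them), the SOX motif AACAAT and the TATA box TATAAA were in none of the 8 genes, against 3.2%, 9.42% and 12.4% of all windows. Each of them, like ACAAAG, had 6 or more copies in 1 window of all genes. The marked motifs do not overlap in the sequences shown, and the matches describe letters, not binding.

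Sequencing depth ranged from 19326365 reads in cKO 2 to 54128334 in cKO 3, and levels are given as CPM, the reads of a gene scaled to 1000000 reads of the mouse. *Mef2c* itself was at 800.3, 771.8 and 800.2 CPM in controls 1 to 3 and at 1231, 1276 and 1468 CPM in cKO 1 to 3. These counts cover the whole gene, and so they do not measure the loss of the floxed part. Over 14598 genes tested, 13.2% differed between genotypes (limma, adjusted p under 0.05 and absolute log2 fold change above 0.3), 5.7% being higher and 7.55% lower in cKO. The labels do not say from how many litters the mice came.

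The structural proteins of compact myelin had the highest levels. *Mbp*, the basic protein that holds the cytoplasmic faces of the membrane together, was at 2004, 1510 and 2494 CPM in controls 1 to 3 and at 2310, 2825 and 3009 CPM in cKO 1 to 3. Control 2 was lowest, and cKO 1 lay below control 3, so that the genotypes overlapped. The mean was 2003 ± 492 CPM in controls and 2715 ± 362 CPM in cKO (SD, n = 3 each), a log2 fold change of 0.46 ± 0.17 (SE).

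*Mobp* (chr9:120058860-120090602 in mm9, plus strand), a second basic protein of compact myelin, was at 540.1, 394.1 and 651.0 CPM in controls and at 671.9, 915.7 and 855.7 CPM in cKO. Here every cKO mouse was above every control, although cKO 1 exceeded control 3 only narrowly. The log2 fold change was 0.64 ± 0.18 (SE).

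*Mog* and *Mag* encode immunoglobulin-like proteins of the myelin surface, the first on the outermost layer and the second on the layer that faces the axon. *Mog* (chr17:37147691-37160343 in mm9, minus strand) was at 77.06, 57.17 and 89.29 CPM in controls and at 79.28, 129.5 and 117.5 CPM in cKO. The cKO mice were split, with cKO 1 close to control 1 and the other two well above all controls. The log2 fold change was 0.54 ± 0.20 (SE). *Mag* (chr7:31684202-31699851 in mm9, minus strand) was at 134.0, 113.7 and 169.8 CPM in controls and at 149.4, 205.6 and 196.8 CPM in cKO. Its log2 fold change of 0.41 ± 0.16 (SE) was the smallest of the 9, and the genotypes overlapped at cKO 1.

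*Cnp* and *Ermn* belong to the cytoplasm-filled parts of the sheath. *Cnp* (chr11:100436218-100453043 in mm9, plus strand), a phosphodiesterase that keeps the cytoplasmic channels open, was at 249.2, 178.6 and 300.2 CPM in controls and at 283.0, 366.3 and 386.9 CPM in cKO, with a log2 fold change of 0.53 ± 0.18 (SE). *Ermn* (chr2:57897524-57905275 in mm9, minus strand), an actin-binding protein of late oligodendrocytes, had the lowest levels, at 32.14, 22.45 and 36.82 CPM in controls and 35.82, 43.93 and 42.75 CPM in cKO. Its log2 fold change was 0.45 ± 0.17 (SE). In both genes cKO 1 lay between controls 1 and 3. Exons of *Cnp* overlap *Dnajc7* and exons of *Ermn* overlap *Galnt5*, each on the opposite strand, and whether the counting used strand is not given in the sources used here.

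*Cldn11* and *Mal* encode membrane proteins of junctions and rafts. *Cldn11* (chr3:31048868-31063246 in mm9, plus strand), the claudin of the tight junctions between myelin layers, was at 131.2, 109.4 and 144.9 CPM in controls and at 176.4, 242.3 and 239.5 CPM in cKO. The groups did not overlap, the controls were closer together than for any other member (CV 13.94%), and the log2 fold change of 0.77 ± 0.14 (SE) was the largest of the 9. *Mal* (chr2:127458962-127482431 in mm9, minus strand), a proteolipid of glycolipid-rich membrane, was at 145.8, 114.7 and 183.8 CPM in controls and at 172.3, 259.8 and 244.7 CPM in cKO. Its log2 fold change was 0.61 ± 0.19 (SE), with cKO 1 below control 3.

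*Ugt8a* (chr3:125568277-125641468 in mm9, minus strand) encodes the transferase that adds galactose to ceramide and so makes the main glycolipid of myelin. It was at 49.22, 32.98 and 59.16 CPM in controls and at 52.35, 70.58 and 71.57 CPM in cKO. The controls differed up to 1.79-fold among themselves, the widest range of the 9, and cKO 1 was within it. The log2 fold change was 0.49 ± 0.20 (SE).

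**Figure D1:**
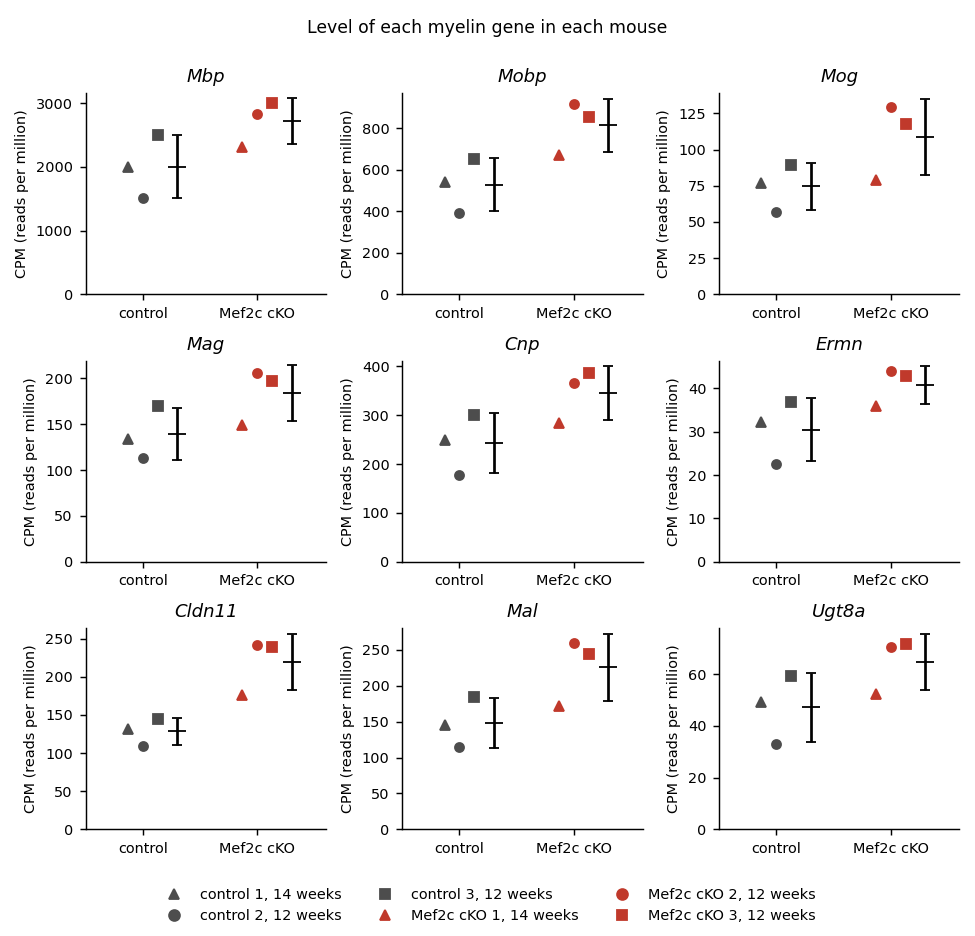
CPM of each of the 9 myelin genes (y axis, from 0) in each mouse, with the mean and SD of the 3 mice of each genotype as black bars. Control 2 is the lowest mouse in all 9 panels, and the genotypes are apart only for *Mobp* and *Cldn11*.

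The 9 genes ordered the mice in much the same way. Control 2 was the lowest of the 6 mice for all 9 genes, control 3 was the highest control for all 9, and cKO 1 was the lowest cKO mouse for all 9. cKO 2 and cKO 3 were above every control for all 9, whereas cKO 1 was below control 3 for 7. At 14 weeks, with 1 mouse per genotype, the cKO level was 1.03 to 1.34 times the control level, and at 12 weeks, with 2 per genotype, the ratio of means was 1.42 to 1.89. Whether the ratio depends on age was not tested.

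Log2 fold changes of the 9 genes ranged from 0.41 to 0.77, against a median of 0.008 over all genes tested. Of the 9, 2 met the cut-offs for a higher level in cKO, *Mobp* and *Cldn11*, beside 5.7% of all genes. The same 2 were the ones with every cKO mouse above every control, a pattern found in 16.8% of all genes. Since the contrast chose the genes, nothing is read from these counts. The first count moved with single mice: it was 7 without control 3, 5 without cKO 1, and 1 (*Cldn11*) without any one of the other 4.

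Apart from genotype, the 9 genes were among the most variable of the transcriptome. With each mouse set against the mean of its genotype, their SD on the log2 scale was 0.23 to 0.35, with a median of 0.31, whereas the median over 9202 genes of at least 10 CPM was 0.09. Even the least variable member, *Cldn11*, exceeded 94.6% of these genes. On average over the 9, control 2 deviated by -0.36 and control 3 by 0.31 from the control mean on the log2 scale, and cKO 1 deviated by -0.29 from the cKO mean. The largest gap between controls was thus similar in size to the differences between genotypes.

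The proportions of the 9 transcripts varied much less than their levels. Summed over the 9, controls 1 to 3 had 3363, 2533 and 4129 CPM and cKO 1 to 3 had 3931, 5059 and 5164 CPM, or 0.253% to 0.516% of all reads. *Mbp* supplied 55.85% to 60.40% of the sum in the 6 mice, *Mobp* 15.55% to 18.10% and *Cnp* 7.052% to 7.492%. The CV over the 6 mice of the share of *Cnp* was 2.149%, against 26.05% for its level. The share of *Cldn11* had the largest CV, 11.32%. It was 3.901%, 4.317% and 3.509% in controls and 4.488%, 4.789% and 4.638% in cKO, with no overlap. The share of *Mobp* was likewise higher in every cKO mouse. The share of *Mbp* was lower in every cKO mouse, at 58.77%, 55.85% and 58.26%, than in the controls, at 59.60%, 59.62% and 60.40%. The shares of the other 6 genes overlapped. Shares are parts of the same sum, so a rise in some lowers others, and they come from the levels that selected the genes. They are a description without a test.

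**Figure D2:**
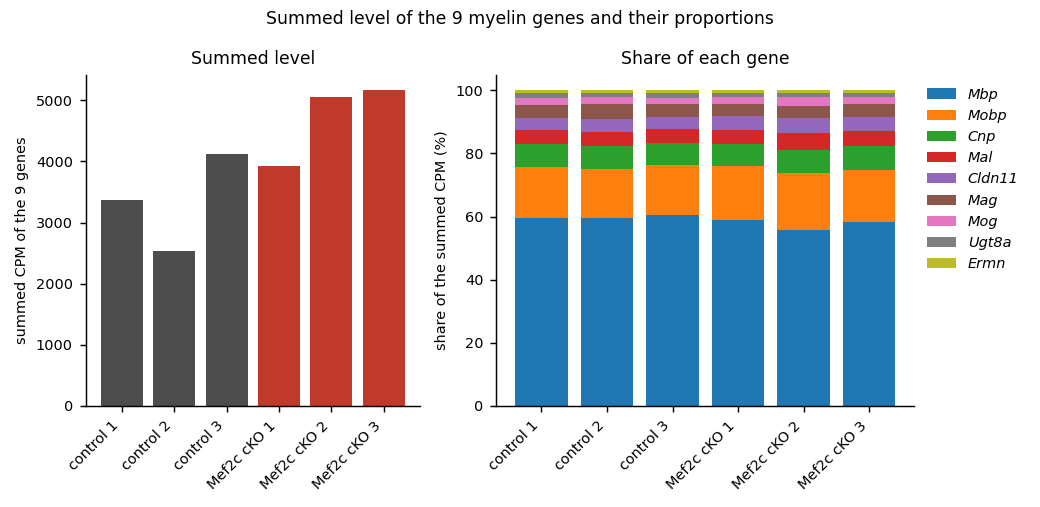
Left, summed CPM of the 9 genes in each mouse, as bars from 0. Right, the share of each gene in that sum (%), where the bands keep similar heights although the sum runs from 2533 to 5164 CPM.

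Scaled by the length of their annotated exons, the members fell in the order *Mbp*, *Mobp*, *Cldn11*, *Cnp*, *Mal*, *Mag*, *Mog*, *Ugt8a* and *Ermn*. On this scale *Mbp* was at 238.4 ± 58.5 RPKM in controls and *Mobp* at 81.3 ± 19.8 RPKM (SD, n = 3), and *Mbp* lay above *Mobp* with no overlap over the 6 mice. *Cldn11* was above *Cnp* in 5 of 6 mice, and *Mal* above *Mag* in 3 of 6, so these neighbours were not separated. *Mog*, at 43.8 ± 9.53 RPKM in controls, was above *Ugt8a*, at 13.2 ± 3.69 RPKM, again with no overlap. With the longest transcript as the length, *Cnp* and *Cldn11* changed places and the other 7 kept theirs.

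The members also varied together within genotypes. With mice centred on their genotype, the 36 pairs of members had Pearson correlations from 0.878 to 0.997 over the 6 mice, with a median of 0.961. Each member correlated with the mean of the other 8 at 0.959 to 0.992. Over 9193 other genes of at least 10 CPM, the correlation with the mean of the members had a median of -0.112, and 2.306% were above 0.9. These are descriptions over 6 mice whose libraries all genes share. The 10 genes most like the members, with correlations from 0.991 to 0.999, were *Tmem63a*, *Myo6*, *Litaf*, *Hmbox1*, *Cntn2*, *Tspan2*, *Ankrd40*, *Ttyh2*, *Nap1l5* and *Plekhg3*. Their amplitude differed widely. The SD within genotypes was 0.33 for *Tspan2*, a tetraspanin of oligodendrocytes, and 0.25 for *Tmem63a*, close to that of the members, but 0.03 for *Hmbox1*.

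Among other oligodendrocyte genes, median likeness differed between the lists, which are short and share some genes. The median correlation was 0.917 over 24 mature oligodendrocyte genes, 0.826 over 7 lineage transcription factors, 0.577 over 5 premyelinating genes and 0.638 over 11 precursor genes. *Sox10* was at 0.983 and *Olig2* at -0.376, both being in the factor and the precursor lists. *Cspg4*, the NG2 proteoglycan of precursors, was at -0.503, the lowest of the precursor list, of which *Sox10* was the highest. Of the 18 cholesterol synthesis genes the median was 0.679. Medians were 0.443 over astrocyte markers, -0.332 over microglia markers and -0.364 over general neuron markers.

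**Figure D3:**
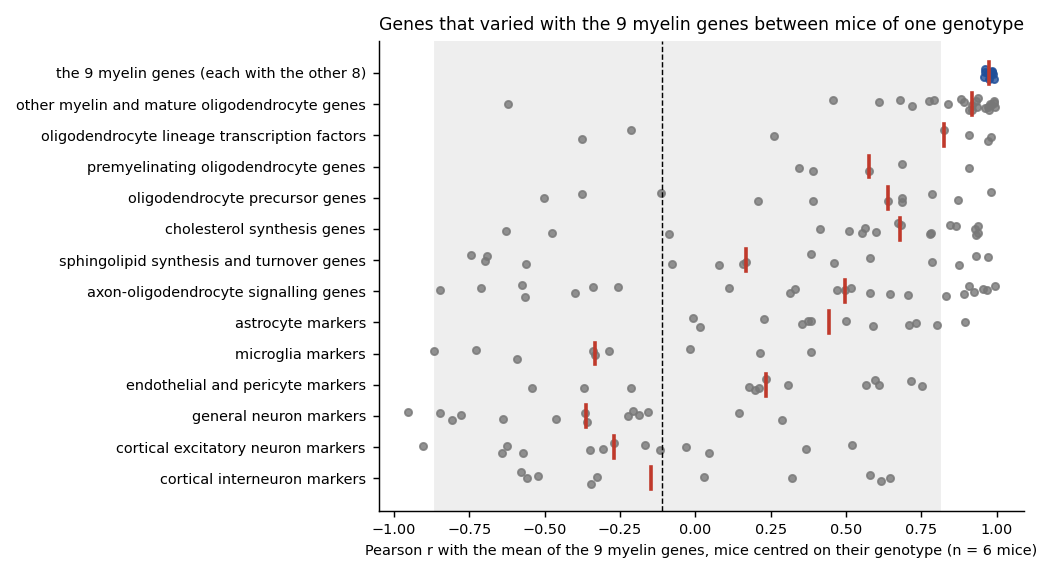
Pearson correlation (x axis) of each gene with the mean of the 9 myelin genes over 6 mice centred on their genotype, by gene list. Red bars are list medians, the grey band spans the central 90% of 9193 genes and the dashed line is their median of -0.112; the 9 genes sit between 0.959 and 0.992.

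Between genotypes, the remaining genes of the lineage were compared by stage. Of 34 mature oligodendrocyte genes that are not members, 5 were higher in cKO and none lower, against 5.7% and 7.55% of all genes, and 12 had every cKO mouse above every control (35.29%, against 16.8% of all genes). The median log2 fold change of the 34 was 0.32. Without 1 mouse the count of higher genes was 4 to 12, the highest without control 3.

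Of the 34 mature genes, 30 had a log2 fold change above 0 (88.24%, against 51.71% of all genes). The 5 that passed both cut-offs had control means of 6.290 to 43.30 CPM. *Cd9*, a tetraspanin, was at 35.72, 29.42 and 37.02 CPM in controls and at 44.59, 48.90 and 55.53 CPM in cKO (log2 fold change 0.54 ± 0.11, adjusted p = 0.009). *Hapln2*, which links hyaluronan at nodes of Ranvier, was at 21.88, 17.71 and 20.20 CPM in controls and at 27.64, 29.44 and 27.14 CPM in cKO (0.50 ± 0.09, adjusted p = 0.006). *Gjb1*, the gap junction protein connexin 32, rose by 0.55 ± 0.12 (adjusted p = 0.017) and *Cmtm5* by 0.44 ± 0.10 (adjusted p = 0.015). The fifth, *Apod*, named after its values were seen, rose by 0.40 ± 0.09 (adjusted p = 0.016). *Gjb1* lost its call without control 1, control 2 or cKO 1, and the other 4 passed without any one mouse. In these 5 genes, which were selected by the cut-offs, cKO 1 was above all controls, as in *Mobp* and *Cldn11*, the 2 members that met them.

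Lineage transcription factors were higher in 4 of 12 cases (33.33%) and lower in none, against 5.7% and 7.55% of all genes. *Sox8*, a partner of *Sox10*, was at 31.64 and 35.58 CPM in controls 1 and 3 and at 53.26, 55.42 and 53.39 CPM in cKO (log2 fold change 0.69 ± 0.08, adjusted p = 7.8e-04), control 2 having no recovered count. *Nkx6-2*, a homeodomain factor of myelinating cells, was at 7.233, 6.499 and 10.38 CPM in controls and at 12.06, 14.54 and 12.45 CPM in cKO (0.71 ± 0.17, adjusted p = 0.022). *Olig2*, which specifies the lineage, was at 21.02, 19.23 and 17.33 CPM in controls and at 25.38, 24.27 and 25.88 CPM in cKO (0.39 ± 0.09, adjusted p = 0.017). *Olig1* was at 84.83 and 87.40 CPM in controls 1 and 2, with no count in control 3, and at 104.3, 120.1 and 128.0 CPM in cKO (0.44 ± 0.09, adjusted p = 0.014). *Sox10*, at 26.76, 20.81 and 29.88 CPM in controls and 31.06, 37.00 and 36.21 CPM in cKO, did not pass (0.44 ± 0.13, adjusted p = 0.055).

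The calls for *Nkx6-2* were lost without control 1, control 2 or cKO 2, and for *Olig2* without control 3 or cKO 3. *Sox8* and *Olig1* could not be tested without either of their remaining controls and passed in the other 4 cases. Without 1 mouse, 1 to 4 factors passed, the fewest without control 1.

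Genes of earlier stages were mixed. Of 10 premyelinating genes 2 were higher, *Bcas1* (log2 fold change 0.43 ± 0.11, adjusted p = 0.032) and *Kif19a* (0.61 ± 0.17, adjusted p = 0.044), but each passed only in the fit without control 3 when 1 mouse was left out. The small GTPase gene *Rras2* was lower, at 19.93, 24.31 and 26.37 CPM in controls and 11.45, 12.78 and 12.64 CPM in cKO (-0.92 ± 0.11, adjusted p = 6.9e-04), and passed without any one mouse. Of 15 precursor genes, *Olig2* alone was called, and its call is the one given above. Without control 1, 2 precursor genes passed as lower, and without cKO 3 none passed. *Pdgfra*, the growth factor receptor that defines precursors, was at 54.45 and 62.16 CPM in controls 1 and 3 and at 53.29, 54.80 and 62.44 CPM in cKO (-0.04 ± 0.10, adjusted p = 0.845, control 2 without a count). *Cspg4* was at 22.35, 23.06 and 20.88 CPM in controls and at 23.52, 22.66 and 25.01 CPM in cKO (0.10 ± 0.08, adjusted p = 0.443). The genotypes overlapped for both. Of the 15 precursor genes, however, 7 had every cKO mouse above every control and 4 had every cKO mouse below. The counts above and below were 5 and 1 of 10 premyelinating genes and 6 and 1 of 12 factors. Over all genes the shares were 16.8% and 17.8%, and the lists share some genes. In limma, 10 of the 15 precursor genes had an unadjusted p under 0.05. Separation of the genotypes was thus not limited to mature genes.

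Over the 66 lineage genes that are not members, each counted once, 11 were higher (16.67%) and 1 lower (1.515%), against 5.7% and 7.55% of all genes. The total of 12 was 7 without control 2 and 20 without control 3, and 8 to 12 without any other mouse. The lists were chosen with earlier results of these data known. Within genotypes, 43 of these genes had a median correlation of 0.840 with the members. These counts are therefore not independent of the choice of the members.

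**Figure D4:**
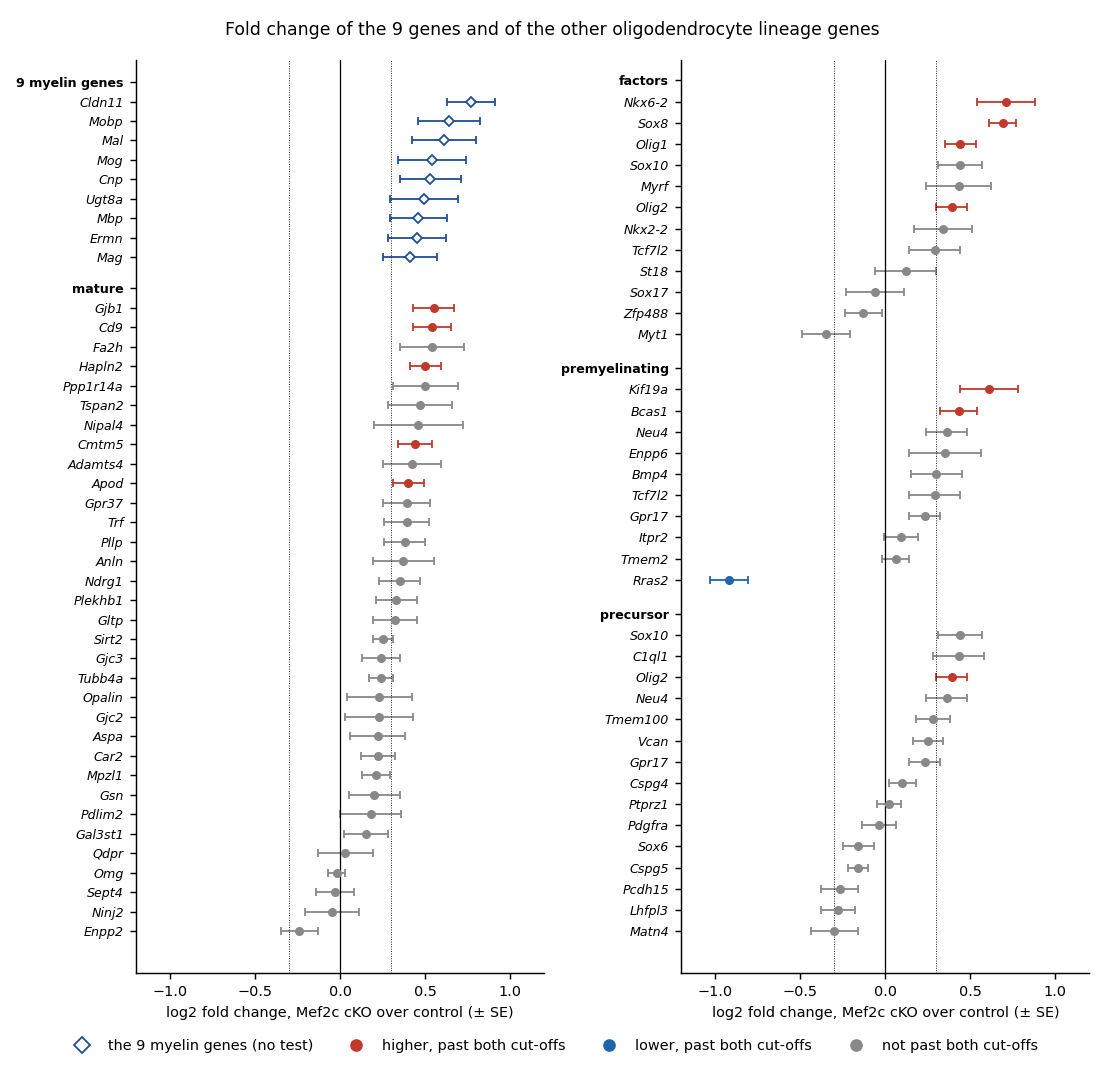
Log2 fold change of cKO over control ± SE (x axis) for the 9 myelin genes (open diamonds, no test) and the other lineage genes reported here by stage (filled circles, coloured where past both cut-offs); dotted lines are at 0.3 and -0.3. All 9 myelin genes lie between 0.41 and 0.77, and precursor genes lie on both sides of 0.

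Myelin membrane is rich in cholesterol and galactolipids, so the enzymes that make them were examined beside *Ugt8a*. Of 21 cholesterol synthesis genes tested by limma, 0 passed both cut-offs, against 13.2% of all genes, and 6 had an unadjusted p under 0.05. The log2 fold change was above 0 for 17 of the 21 (80.95%, against 51.71% of all genes). The median log2 fold change of the 21 was 0.10. *Srebf2*, the main regulator of the pathway, was at 273.3, 254.0 and 259.8 CPM in controls and at 269.5, 270.2 and 274.4 CPM in cKO. Without control 1 or without cKO 1, 1 and 2 genes of the pathway passed as higher.

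Of 17 sphingolipid genes 2 were higher (11.76%) and none lower, against 5.7% and 7.55% of all genes. *Cers2*, the ceramide synthase for the very long chains of myelin lipids, was at 45.34, 45.21 and 55.16 CPM in controls and at 55.98, 67.21 and 66.16 CPM in cKO (log2 fold change 0.38 ± 0.10, adjusted p = 0.034). The call for *Cers2* was kept only without control 3 or without cKO 1. *Cers6*, another ceramide synthase, rose by 0.34 ± 0.06 (adjusted p = 0.004) and passed without any one mouse.

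Genes listed for signals between axons and oligodendrocytes changed in both directions. Of 26, 3 were higher and 3 lower (11.54% each), against 5.7% and 7.55% of all genes. Without 1 mouse, 2 to 5 were higher, the most without control 3, and 2 to 3 were lower. *Nrg1*, the neuregulin growth factor, was at 15.17, 17.13 and 16.49 CPM in controls and at 6.444, 7.606 and 7.852 CPM in cKO, a log2 fold change of -1.15 ± 0.11 (adjusted p = 1.7e-04). The Notch ligand *Jag2* fell by 0.49 ± 0.08 on the log2 scale (adjusted p = 0.002) and *Pdgfb* rose by 0.48 ± 0.07 (adjusted p = 0.002). All 3 passed without any one mouse. *Lpar1*, a lysophosphatidic acid receptor of oligodendrocytes, was at 32.64, 23.79 and 37.19 CPM in controls and at 40.25, 54.17 and 62.94 CPM in cKO (0.75 ± 0.19, adjusted p = 0.028). It correlated with the members within genotypes at 0.955, and its call was kept only without control 3 or without cKO 1.

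Markers of other cells were compared because the dissected tissue holds them too. Their counts stand beside 5.7% of all genes higher in cKO and 7.55% lower. Peripheral myelin is made by Schwann cells. Apart from *Sox10* and *Erbb3*, which oligodendrocytes also express, the highest value of a Schwann cell marker in a mouse was 2.367 CPM, for *Egr2* in control 3, a gene named after its values were seen. Of 4 Schwann cell markers that could be tested, 0 passed in limma and 2 had an unadjusted p under 0.05. Without control 3, 2 passed as higher, and these were *Sox10* and *Erbb3*. The sum of 8 Schwann cell markers, *Sox10* and *Erbb3* among them, was 31.66 to 44.97 CPM in controls and 46.36 to 53.50 CPM in cKO. Most of it came from *Sox10* and *Erbb3*, with means of 25.82 and 10.98 CPM in controls and 34.76 and 14.23 CPM in cKO.

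Of 15 microglia markers and of 15 endothelial and pericyte markers, 0 passed in limma, with 2 in each at an unadjusted p under 0.05. Summed levels overlapped between genotypes in both, at 238.5 to 275.6 CPM in controls and 234.3 to 251.4 CPM in cKO for microglia and at 421.7 to 450.2 CPM and 398.1 to 437.5 CPM for vessels. Of 15 astrocyte markers 2 were higher, *Gfap* (log2 fold change 1.37 ± 0.15) and *Aqp4* (0.73 ± 0.05), and 1 was lower, *Aldh1l1* (-0.39 ± 0.08). Their sum was 6264 to 6520 CPM in controls and 5664 to 5955 CPM in cKO. Much of it was *Slc1a2*, named after its values were seen, with means of 3407 and 2864 CPM, which did not pass both cut-offs. With genes weighted equally, as the mean log2 level against its mean over the 6 mice, the list did not fall. As a ratio it was 0.96, 0.95 and 1.01 in controls and 1.00, 1.00 and 1.09 in cKO.

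Neuronal markers also moved with genotype. The sum of general neuron markers was 10476 to 11901 CPM in controls and 12676 to 13030 CPM in cKO, with 4 of 15 higher, or 2 without control 3 or without cKO 3 and 2 with a replicate block. Cortical excitatory markers included 5 higher and 5 lower of 15, the lower ones led by *Emx1*, *Cux2* and *Rorb*, and 3 were lower without control 2. The higher ones include *Mef2c*, the targeted gene. *Emx1* is the gene into which Cre was inserted in cKO mice, and it could not be tested without control 2 or control 3. Interneuron markers were higher for 3 and lower for 1 of 15, with sums of 990.1 to 1062 CPM in controls and 1154 to 1309 CPM in cKO. The 3 higher interneuron markers fell to 1 without control 1, control 2 or cKO 2 and with a replicate block. Hippocampal markers were higher for 7 and lower for 1 of 13, with sums of 398.4 to 444.4 CPM in controls and 573.4 to 726.2 CPM in cKO.

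Markers of neighbouring tissue differed between single mice. Striatal markers, of which 2 of 15 were higher and 1 lower, had relative levels (the mean log2 level of the list against its mean over the 6 mice, as a ratio) of 0.94, 1.17 and 0.83 in controls 1 to 3 and 1.66, 0.48 and 1.37 in cKO 1 to 3. Without cKO 2, 6 striatal markers were higher. The relative level of the 9 myelin genes in the same mice was 0.86, 0.64 and 1.03 and then 0.99, 1.35 and 1.32. Within each genotype the mouse with the most striatal marker RNA, control 2 or cKO 1, was thus the one with the least myelin RNA. However, cKO 2 and cKO 3, far apart in striatal level at 0.48 and 1.37, were close in myelin level at 1.35 and 1.32. Leptomeningeal markers, 1 of 12 higher, summed to 343.9 to 452.5 CPM in controls and 376.9 to 673.7 CPM in cKO, and choroid plexus and ependymal markers, 2 higher and 1 lower of 9, to 17.76 to 44.62 CPM and 24.58 to 37.37 CPM. Without cKO 2, 8 leptomeningeal markers were higher, and without control 1, control 3, cKO 1 or cKO 3 none was. Choroid plexus and ependymal markers ranged from 0 to 3 higher without 1 mouse, with 0 without control 1 or cKO 3, and 4 were higher with a replicate block. The part that any of these cell types or the dissection had in the levels of the 9 genes was not tested.

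**Figure D5:**
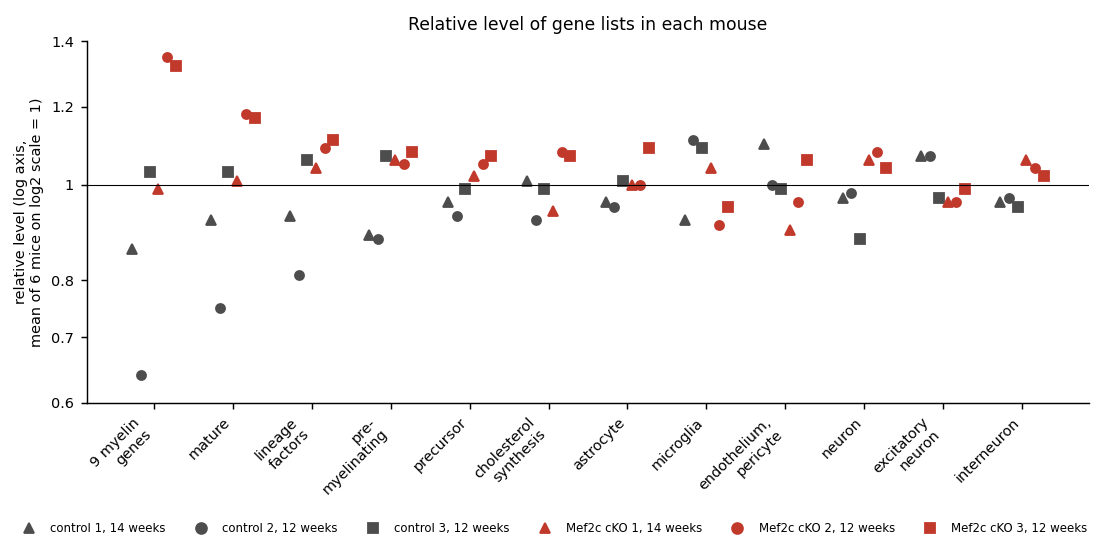
Relative level of gene lists in each mouse (y axis, log scale; the mean over genes of the log2 level against the mean of the 6 mice). The 9 myelin genes span 0.64 to 1.35; the striatal, hippocampal, Schwann cell, choroid plexus and leptomeningeal lists are not drawn.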

How the data were processed

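The authors sequenced polyA-selected RNA in directional libraries, 1 for each of the 3 control and 3 *Mef2c* cKO cortices. Reads were aligned to mm9 with TopHat and Bowtie, counted on UCSC genes with HTSeq and converted to RPKM, and the deposited RPKM tables hold 21759 rows each, of which 92 name no gene (0.0575% to 0.0853% of reads). Genotype and age come from the sample labels.

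The deposited RPKM of a gene rest on lengths that differ between tables, with 65 to 295 lengths shared by unrelated genes in each. Read totals and whole-number counts were therefore recovered from the steps between values. A count was found for 95.86% to 99.88% of values above 0, and these counts sum to 95.95% to 99.99% of the totals. Single recovered counts can be wrong, and values with no clear count were missing. Recovery and test were both checked on simulated data. Counts were divided by the read total (CPM), and log2(CPM + 0.1) was compared with limma 3.58.1 in R 4.3.3 (eBayes, with the variance trend on). A gene entered if it had at least 2 counts per genotype and exceeded 0.5 CPM throughout one genotype or both, and passed at a Benjamini-Hochberg adjusted p under 0.05 over all tested genes and an absolute log2 fold change above 0.3. Fold changes on this scale understate the change of low genes.

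Members and lists were chosen with earlier results of these data known. Genes named are the 9 members, *Mef2c*, *Olig1*, *Olig2*, *Sox10*, *Pdgfra* and *Cspg4*, up to 4 genes past the cut-offs with the largest change in a list (or the 2 most abundant where none passed) and the 10 genes most like the members. Some genes that the rule names are not reported here. Sums over a list use genes counted in every mouse. Alternatives were other pseudocounts, filters, scaling, variance models and lengths, a replicate block, the deposited RPKM, and leaving out each mouse. Gene coordinates come from gencode vM1 (NCBIM37, the mm9 assembly), which is not the annotation the authors used, and promoters from RefSeq (GRCm38.p6). Python 3.11.15, numpy 2.4.6, pandas 2.3.3 and matplotlib 3.10.9 were used.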

Additional observations from a re-analysis of the deposited data

How the results depend on the processing

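Over the 14 alternatives that used recovered counts, all 126 values of the log2 fold change of the 9 genes were positive, between 0.24 and 0.92, and moved by less than 1 SD of the mice within genotypes. The deposited RPKM, in which a gene has other lengths in other mice, gave the opposite sign for *Mbp* (-1.30), *Mag* (-1.07), *Ermn* (-0.82), *Cldn11* (-0.59) and *Ugt8a* (-1.62). On that scale 14 genes passed in all, with 0 lineage genes and 0 members. The count of members past the cut-offs was 1 without the filter on low values and 1 without the variance trend, and it ranged from 1 to 7 when 1 mouse was left out. The cause was not tested. The count of lineage genes that are not members ranged from 7 to 20 without 1 mouse, and the count over all genes from 1540 to 1729. An absolute log2 fold change above 1 left 470 genes.

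In the labels, mice with the same number share that number and their age. Their deviations from the genotype means correlated at -0.176, -0.091 and -0.072, and 0 of 3 controls correlated best with their own number. These correlations do not show whether such mice shared a litter. With a replicate block, 1 member (*Cldn11*), 12 lineage genes and 1611 genes in all passed. Median-of-ratios scaling left the median likeness of mature oligodendrocyte genes within 1 SD of its value. With 3 mice per genotype an exact permutation test of a single value cannot pass at 0.05, and depth did not limit the members, whose smallest count was 849 reads.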
